A study of Mus musculus with 10 samples.

Results

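The integrin and laminin genes were compared between mouse melanomas labelled as knockout and as wild type for Fes, the gene of a cytoplasmic tyrosine kinase. They were taken by gene symbol: integrin alpha subunits (Itga followed by a number or letters), integrin beta subunits (Itgb followed by a digit) and laminin chains (Lama, Lamb or Lamc followed by a digit). This rule found 38 rows among the 47643 genes of the tables, 27 integrin and 11 laminin rows, with 37 symbols, because Itgam stands under 2 Ensembl identifiers. RNA had been sequenced from 5 tumours labelled Fes KO (Fes-/-) and 5 labelled Fes WT (Fes+/+). Both groups carried Tyr::CreERT2/+ and BRafV600E/+, so an activated Braf allele and the tyrosinase-driven Cre, which acts in the melanocyte lineage, were shared by the controls. Tumours had been started with 4OH-Tamoxifen at 5 mM applied to the back skin of both groups. The labels give no age and do not say whether each tumour had its own mouse, so the p-values reflect only how much these tumours varied.

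Integrins are pairs of an alpha and a beta subunit that span the cell membrane and link the matrix outside to actin or intermediate filaments inside. Laminins are trimers of an alpha, a beta and a gamma chain that assemble into the sheet of the basement membrane, and a group of integrins serves as their receptors. In skin, a laminin with the alpha 3 and beta 3 chains and the integrin of alpha 6 and beta 4 anchor the epidermis in hemidesmosomes, whereas integrins with the beta 2 chain are restricted to leukocytes.

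Total counts ranged from 13226783 to 16599120 per tumour. Fes itself was at 33.4, 32.1, 29.2, 57.5 and 42.3 CPM (counts scaled to the library size by edgeR) in Fes KO 1 to 5 and at 84.6, 74.5, 72.5, 72.7 and 102 CPM in Fes WT 1 to 5, so the groups did not overlap and were ordered as their labels say. Fes transcript was thus still counted in every Fes KO tumour, and Fes itself missed the threshold of 0.05, at -1.06 (SE 0.19) on the log2 scale and 0.0846 for the adjusted p from edgeR's quasi-likelihood test with Benjamini-Hochberg adjustment. These gene counts do not show whether functional Fes remained. Of the melanocyte markers, none of 10 was at 0 in every tumour, and their sum was between 818 and 1091 CPM across the Fes KO tumours and between 550.1 and 883 CPM across the Fes WT tumours. Sox10 alone made up most of this sum in every tumour except Fes KO 2. It was at 392 to 969.5 CPM in Fes KO and 461 to 809 CPM in Fes WT. As few as 5 of the 10 markers had at least 10 counts in a tumour, so the sum does not measure melanocyte content evenly over them. Fes KO 2 stood apart by its 10 keratinocyte markers, which summed to 5601 CPM against 13.8 to 207 CPM in the other tumours, and Fes WT 3 by its 10 skeletal muscle markers, at 14941 CPM against 2.48 to 1849 CPM. Fes KO 2 also had the next highest skeletal muscle sum, 1849 CPM, and the lowest sum of 8 Schwann cell markers, 1037 CPM. Its level of the melanocyte marker Dct was 325.5 CPM, against 1.90 to 47.0 CPM in the other tumours. Its Sox10, at 392 CPM, was by contrast the lowest of all tumours, as was its Schwann cell sum. Sox10 and Dct thus did not rank the tumours alike, and a sum made up mostly of Sox10 is not a measure of melanocyte content. Xist, the RNA that coats an inactive X, was detected above 1 CPM in 3 tumours, Fes KO 1, Fes KO 2 and Fes WT 5 (at 713, 670.1 and 719.8 CPM). In bulk tissue, fewer cells of a type and less RNA per cell cannot be told apart.

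No integrin or laminin gene differed between Fes KO and Fes WT past the threshold, an adjusted p below 0.05 in edgeR's quasi-likelihood test with Benjamini-Hochberg adjustment over all genes. Of the 38 rows, 34 had enough counts to be tested (24 integrin and 10 laminin genes) and 0 of 34 were called, against 26 of 14816 genes (0.175%). The count of called members was also 0 with DESeq2, with limma-voom and in every one of the 20 alternative fits. At an unadjusted p below 0.05, 5 members remained: Lamc1, Itga6 and Lama5 were higher in Fes KO (3 of 34, where 4.23% of all genes were), and Lamc3 and Itgax were lower (2 of 34, where 5.39% of all genes were). In either direction this was 14.7% of the members against 9.62% of all genes. For 0 of 34 members did all 5 tumours of one group lie above all 5 of the other, whereas 1.90% of all genes separated in this way.

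Of the tested laminins 7 of 10 lay above 0, and of the integrins 13 of 24. The median log2 fold change, Fes KO minus Fes WT, was 0.21 for the laminins and 0.02 for the integrins, beside 0.01 for all genes tested. Among all members, 20 of 34 lay above 0, where 52.4% of all genes did. The median SE of a member was 0.30, larger than the 0.18 of all genes, and the 95% interval of 29 of 34 members included 0. Several counts turned on single tumours. Without Fes KO 2, the laminin median was 0.01, 10 members had an unadjusted p below 0.05 (12.1% of all genes) and 3 did not overlap between groups, namely Itga11, Itga6 and Lamc1 (4.06% of all genes). Without Fes KO 4, 9 members passed an unadjusted p of 0.05 (11.9% of all genes) and 1, Itgam, did not overlap (4.32% of all genes). Leaving out Fes KO 3 left 2 such members (6.48% of all genes), and leaving out Fes KO 5 or Fes WT 3 left 3 (8.11% and 10.7% of all genes). Without Fes WT 5, 1 member, Lama5, did not overlap between groups (3.97% of all genes).

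**Figure D1:**
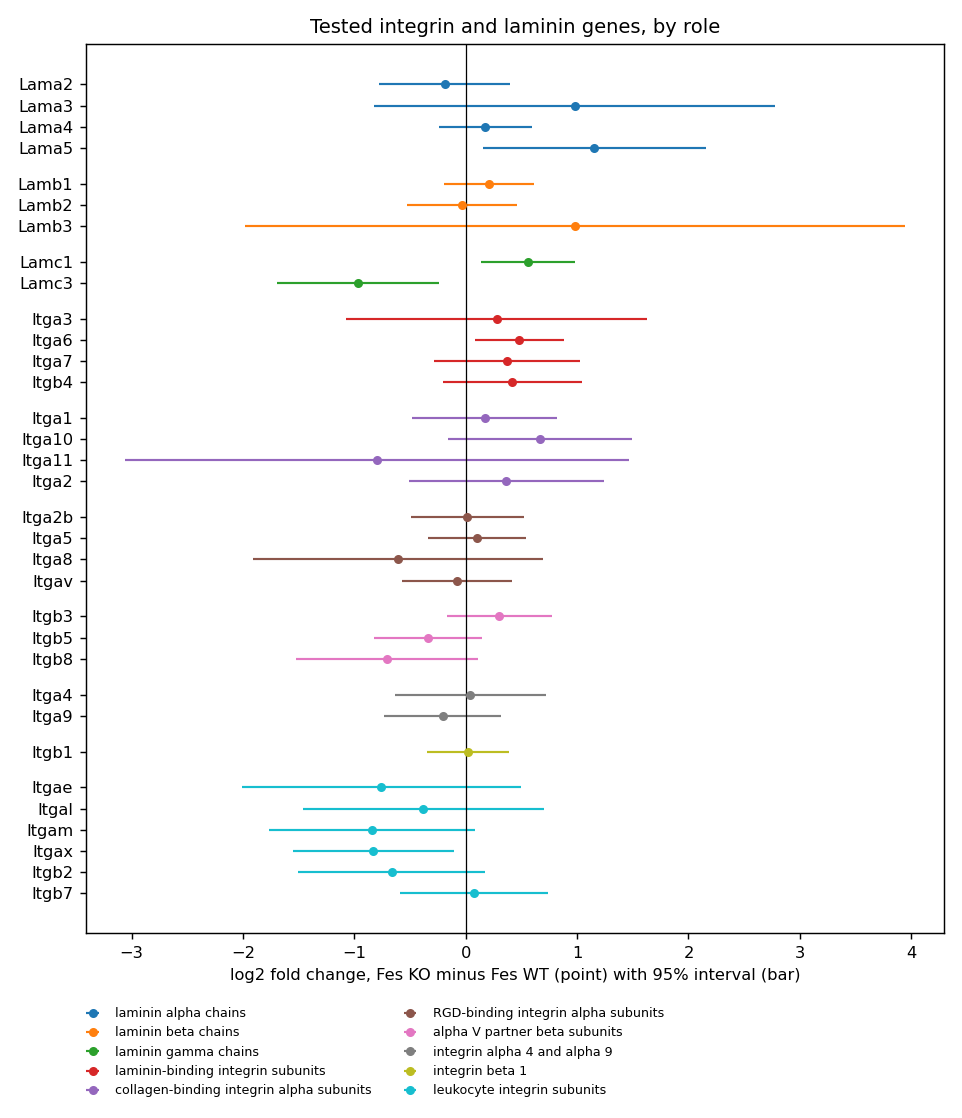
Log2 fold change (Fes KO minus Fes WT, edgeR) on the x axis for 33 of the 34 tested integrin and laminin genes, with points as estimates, bars as 95% intervals and colours for roles. Intervals exclude 0 for Lama5, Lamc1, Itga6, Lamc3 and Itgax only, none of which passed adjustment, and they are widest for Lamb3 and Itga11.

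Promoter windows are shown for 2 members on which the values below turn: Lamb3, which was highest in the keratinocyte-rich Fes KO 2, and Lama5, which had the largest log2 fold change of all tested members. Each window is the 250 bases before the gene's start in RefSeq (GRCm38.p6), written 5′ to 3′ along the gene, with capitals for the GC box GGGCGG on either strand.
Lamb3 (chr1:193301744-193301993, plus strand): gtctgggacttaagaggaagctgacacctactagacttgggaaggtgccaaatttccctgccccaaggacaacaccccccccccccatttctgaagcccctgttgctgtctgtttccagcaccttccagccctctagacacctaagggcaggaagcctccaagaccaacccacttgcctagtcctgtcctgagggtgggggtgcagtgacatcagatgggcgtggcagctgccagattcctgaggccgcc
Lama5 (chr2:180225860-180226109, minus strand): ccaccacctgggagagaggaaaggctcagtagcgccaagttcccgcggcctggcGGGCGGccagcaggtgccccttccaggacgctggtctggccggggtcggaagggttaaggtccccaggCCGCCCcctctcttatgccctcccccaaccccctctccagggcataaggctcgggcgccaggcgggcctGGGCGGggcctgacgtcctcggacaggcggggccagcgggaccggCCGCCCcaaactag
These promoters differ in their CG pairs. Lamb3 has 2 CG pairs and no GC box, whereas Lama5 has 19 CG pairs and 4 GC boxes. The Lama5 window ends at the start of the gene in GENCODE M21, while the Lamb3 window lies inside the longer GENCODE gene, which begins at 193207699. The median over 32851 windows of the same length is 6 CG pairs. A GC box was found in 9 of the 26 windows that RefSeq gives for 23 members, and in 32.7% of all windows. The AP-1 motif TGANTCA, searched on both strands, occurred in 1 member window, that of Itgax, and in 6.75% of all windows. These matches describe the letters only.

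Lama4 and Lama2 were the main laminin alpha chains of these tumours in both groups, and the share of Lama5 was higher in Fes KO on average. Alpha chains give a laminin its receptor binding: Lama2 marks muscle and nerve basement membranes, Lama4 and Lama5 those of vessels, and Lama5 is also found beneath epithelia. Of the alpha chain signal per kb of exon, Lama4 made up 53.5% ± 8.44 in Fes KO and 53.0% ± 4.44 in Fes WT (SD, n = 5 each), and Lama2 29.0% ± 4.19 in Fes KO and 37.6% ± 8.70 in Fes WT (SD, n = 5 each). Lama5 made up 16.6% ± 4.58 in Fes KO and 9.01% ± 6.96 in Fes WT (SD, n = 5 each). Lama1 and Lama3 made up little of it, with Lama3 at 0.140% to 3.50% across the 10 tumours. Lama1, the alpha chain of early embryonic laminin, had 30 counts in all 10 tumours and was not tested.

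Lama5 (ENSMUSG00000015647, GRCm38 chromosome 2, 180176373 to 180225859) was at 115, 92.1, 213, 133 and 276 CPM in Fes KO 1 to 5 and at 41.3, 77.0, 48.0, 41.9 and 165 CPM in Fes WT 1 to 5. The highest Fes WT tumour, Fes WT 5, lay among the Fes KO tumours, while the other 4 Fes WT tumours lay below the lowest Fes KO tumour. The log2 fold change was 1.15 (SE 0.45, 95% interval 0.15 to 2.16), with an adjusted p of 0.460 by edgeR's quasi-likelihood test with Benjamini-Hochberg adjustment (unadjusted p = 0.0282). Over the 20 alternatives it ranged from 0.86 to 1.99, its adjusted p from 0.0531 to 0.758, and its unadjusted p was below 0.05 in 15. It was 0.89 without Fes KO 5, 0.86 with keratinocyte and muscle markers as covariates, 1.67 without Fes WT 5 and 1.99 without the 3 Xist-expressing tumours. Endothelial markers, 10 of 10 of which were detected, summed to between 303 and 676 CPM across the Fes KO tumours and between 303 and 477 CPM across the Fes WT tumours, and their part in the Lama5 values was not tested. Lama4 was at 644, 334, 629.5, 599 and 529 CPM in Fes KO 1 to 5 and at 478, 444, 417, 629 and 456 CPM in Fes WT 1 to 5. Fes KO 2 was lowest and the groups overlapped over most of their range, with a log2 fold change of 0.18 (SE 0.19). For Lama2, the level was 409 ± 137 CPM in the Fes KO tumours and 466 ± 125 CPM in the Fes WT tumours (SD, n = 5 each), a log2 fold change of -0.19 (SE 0.27), with the lowest values in Fes WT 5 and Fes KO 2.

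Laminin beta chains overlapped between groups, while the share of Lamc3 in the gamma chains averaged lower in Fes KO. Beta chains were almost entirely Lamb2 and Lamb1, the partners of most alpha chains in the trimer. Lamb2 was at 609.5, 345, 723, 771 and 653 CPM in Fes KO 1 to 5 and at 576, 700.2, 467, 813 and 614 CPM in Fes WT 1 to 5. Groups overlapped almost completely, at a log2 fold change of -0.03 (SE 0.22, 95% interval -0.53 to 0.46). Lamb1 was at 639.7 ± 164 CPM in the Fes KO tumours and 553 ± 78.6 CPM in the Fes WT tumours (SD, n = 5 each), with a log2 fold change of 0.21 (SE 0.18). Per kb, Lamb2 took 60.5% ± 7.50 in Fes KO and 64.6% ± 5.48 in Fes WT (SD, n = 5 each) of the beta chain signal.

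Lamc1, the gamma chain of most laminins and per kb the most abundant laminin gene here (121 CPM per kb over 10 tumours), was at 1374, 732, 1466, 1074 and 1308 CPM in Fes KO 1 to 5 and at 815, 821, 777, 947 and 682 CPM in Fes WT 1 to 5. The 4 Fes KO tumours other than Fes KO 2 lay above all Fes WT tumours, and Fes KO 2 lay within their range. At 0.56 (SE 0.19, 95% interval 0.14 to 0.98), the log2 fold change had an adjusted p of 0.386 by edgeR's quasi-likelihood test with Benjamini-Hochberg adjustment (unadjusted p = 0.0141). Without Fes KO 2 it was 0.68, with an adjusted p of 0.106, and the groups then did not overlap. Its adjusted p over the 20 alternatives ranged from 0.0608 to 0.728. Lamc3, a gamma chain with a narrower tissue distribution, was at 30.8, 46.2, 38.6, 56.1 and 57.6 CPM in Fes KO 1 to 5 and at 133, 145, 54.5, 59.1 and 57.0 CPM in Fes WT 1 to 5. Fes WT 1 and Fes WT 2 were far above all other tumours, and the remaining Fes WT tumours lay at the level of the higher Fes KO tumours. At -0.97 (SE 0.33, 95% interval -1.70 to -0.24), the log2 fold change had an adjusted p of 0.386 in the same edgeR test (unadjusted p = 0.014).

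As a share of the gamma chains per kb, Lamc3 was at 2.95, 7.68, 3.45, 6.61 and 5.62% in Fes KO 1 to 5 and at 18.0, 19.3, 8.61, 7.80 and 10.1% in Fes WT 1 to 5. The groups did not overlap, although the highest Fes KO tumour, Fes KO 2, and the lowest Fes WT tumour, Fes WT 4, were close to each other. That narrow separation depends on the gamma chain not reported here, which is counted in the sum. As shares of Lamc1 and Lamc3 alone, Fes KO 2 and Fes WT 4 would change order and the groups would overlap. This was 1 of 30 shares in 7 families of chains, of which the others overlapped, and it was singled out after the shares were seen, so it has no test. Lamc1 took 94.0% ± 2.94 in Fes KO and 86.6% ± 5.43 in Fes WT (SD, n = 5 each) of the gamma chains.

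**Figure D2:**
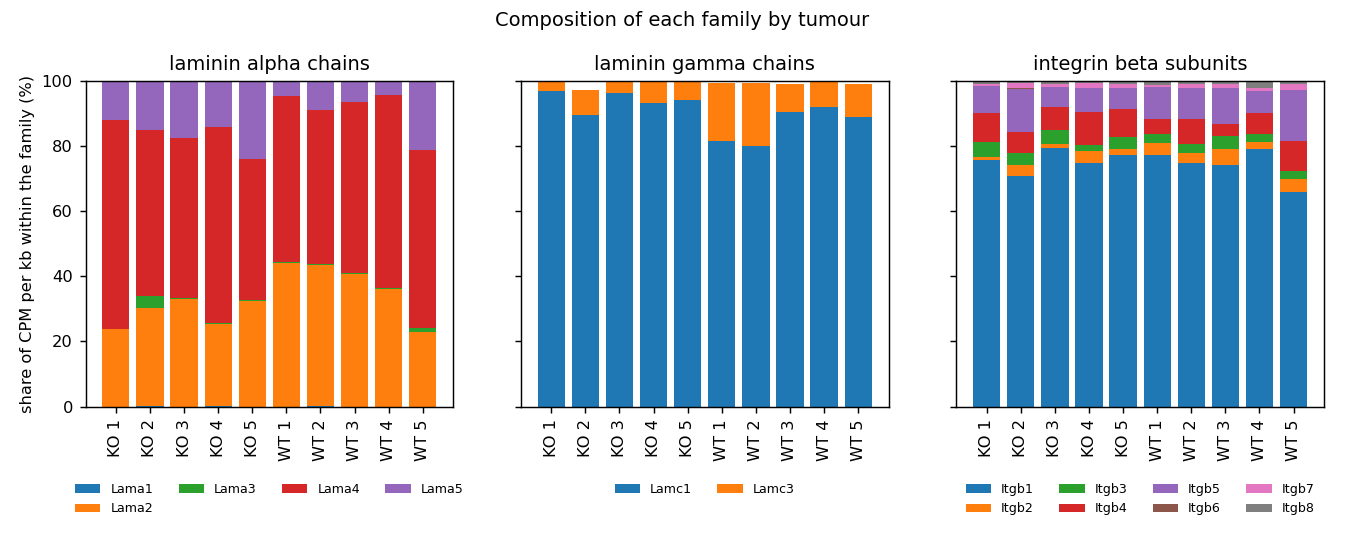
Share of each gene in the summed CPM per kb of its family (y axis, percent) for the 10 tumours on the x axis, in laminin alpha chains, laminin gamma chains and integrin beta subunits. The gamma panel shows Lamc1 and Lamc3 alone, so its bars do not reach 100%. Lama4 and Lama2 fill most of the alpha panel, Lamc3 takes 2.95% to 7.68% in Fes KO and 7.80% to 19.3% in Fes WT, and Itgb1 takes 65.8% to 79.5% of the beta subunits.

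Chains of the epidermal laminin were highest in Fes KO 2 and Fes WT 5, the tumours with the most keratinocyte transcripts. Lama3 and Lamb3, which encode chains of this laminin, and Itga3, a laminin receptor subunit of keratinocytes, were each highest in Fes KO 2 and next highest in Fes WT 5. Lamb3 was at 0.568, 19.6, 0.185, 0.588 and 0.0729 CPM in Fes KO 1 to 5 and at 0.980, 1.21, 1.90, 0.366 and 6.25 CPM in Fes WT 1 to 5. Lama3 was at 1.58, 20.4, 4.01, 1.24 and 3.86 CPM in Fes KO 1 to 5 and at 2.35, 1.34, 2.03, 1.89 and 8.23 CPM in Fes WT 1 to 5. Fes KO 2 exceeded every other tumour for both genes. For Lamb3, it stood at 33.3 times the median of the other 9 tumours, and for Lama3 at 10.02 times. The lowest Lamb3 value, in Fes KO 5, is a single read.

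Keratinocyte markers were also highest in Fes KO 2 and Fes WT 5. Their sum (10 of 10 markers detected, none at 0 in every tumour) was 14.3, 5601, 18.1, 13.8 and 16.5 CPM in Fes KO 1 to 5 and 17.6, 16.3, 157, 15.6 and 207 CPM in Fes WT 1 to 5. Fes KO 2, Fes WT 5 and Fes WT 3 were the highest, in that order, and the other 7 tumours lay between 13.8 and 18.1 CPM. As few as 2 of the 10 markers had at least 10 counts in a tumour, so the low sums may rest on few of them. Fes WT 3 was an exception for Lama3, at 2.03 CPM, below Fes KO 3 (4.01 CPM) and Fes KO 5 (3.86 CPM). For Lamb3, at 1.90 CPM, it came next after Fes KO 2 and Fes WT 5. Fold changes of these chains depended on Fes KO 2. The log2 fold change was 0.98 (SE 1.34) for Lamb3 and 0.98 (SE 0.81) for Lama3. Without Fes KO 2 the values were -2.55 and -0.26, so both were then below 0. With keratinocyte and muscle markers as covariates they were -1.70 and -0.01. No adjusted p of these genes was below 0.05 in any of these fits (edgeR's quasi-likelihood test with Benjamini-Hochberg adjustment). Itgb6, an epithelial beta subunit that activates TGF-beta, had 149 counts in all and was not tested, with 86 of the counts in Fes KO 2.

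**Figure D3:**
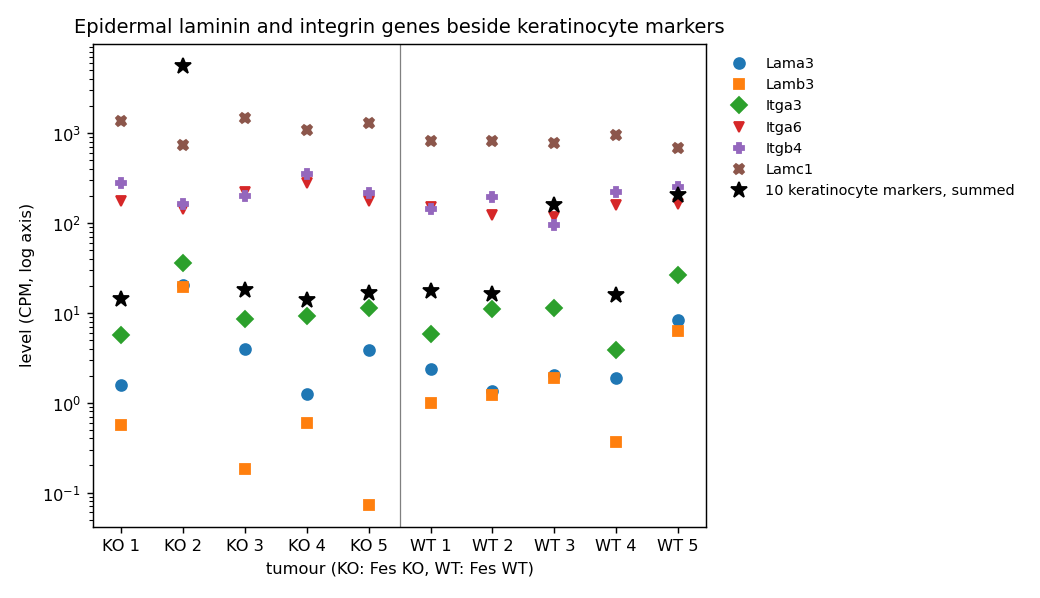
Level in CPM (log y axis) of 6 laminin and integrin genes and the sum of 10 keratinocyte markers (stars) in each of the 10 tumours on the x axis. Lama3, Lamb3 and Itga3 peak with the keratinocyte markers in Fes KO 2 and are next highest in Fes WT 5, whereas Itga6, Itgb4 and Lamc1 do not peak in Fes KO 2.

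The laminin receptor subunits other than Itga3 did not share that pattern. Itga6 pairs with Itgb1 or Itgb4, and Itgb4 pairs with Itga6 alone to form the hemidesmosome receptor. In Fes KO 2, Itga6 was at 0.873 and Itgb4 at 0.759 times the median of the other 9 tumours, against 3.88 times for Itga3. All 4 laminin-binding subunits had log2 fold changes above 0, with a median of 0.39, and none was called. Itga6 was at 174, 142, 223, 278 and 176 CPM in Fes KO 1 to 5 and at 151, 123, 118, 158 and 163 CPM in Fes WT 1 to 5. The Fes KO tumours other than Fes KO 2 lay above all 5 Fes WT tumours. At 0.48 (SE 0.18, 95% interval 0.08 to 0.88), the log2 fold change had an adjusted p of 0.432 by edgeR's quasi-likelihood test with Benjamini-Hochberg adjustment (unadjusted p = 0.0229).

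Itgb4, the highest of this group per kb (30.2 CPM per kb), was at 278, 164, 202, 352 and 216 CPM in Fes KO 1 to 5 and at 143, 193, 94.96, 222 and 253 CPM in Fes WT 1 to 5. Groups overlapped, with the highest value in Fes KO 4 and the lowest in Fes WT 3, and the log2 fold change was 0.42 (SE 0.28, 95% interval -0.21 to 1.04). Itga3 was at 5.68, 36.1, 8.51, 9.28 and 11.3 CPM in Fes KO 1 to 5 and at 5.75, 11.1, 11.3, 3.91 and 26.5 CPM in Fes WT 1 to 5. Its log2 fold change of 0.28 (SE 0.61) became -0.44 without Fes KO 2. Itga7, the laminin receptor of muscle, was at 68.3 ± 33.3 CPM in the Fes KO tumours and 52.9 ± 7.74 CPM in the Fes WT tumours (SD, n = 5 each), a log2 fold change of 0.37 (SE 0.30) that was 0.07 without Fes KO 5. Itga7 was highest in Fes KO 5 and lowest in Fes KO 2, while skeletal muscle markers were highest in Fes WT 3. The 7 pericyte and smooth muscle markers also had their highest sum, 2197 CPM, in Fes KO 5 and their lowest, 947 CPM, in Fes KO 2. Fes KO 4, next highest for Itga7, had a sum of 1274 CPM, below every Fes WT tumour. The part of these cell types in the Itga7 values was not tested. Schwann cells also express the alpha 6 and beta 4 subunits. The 8 Schwann cell markers, all detected, summed to between 1037 and 3183 CPM across the Fes KO tumours and between 1672 and 3381 CPM across the Fes WT tumours, and their part in the values of Itga6 and Itgb4 was not tested.

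**Figure D4:**
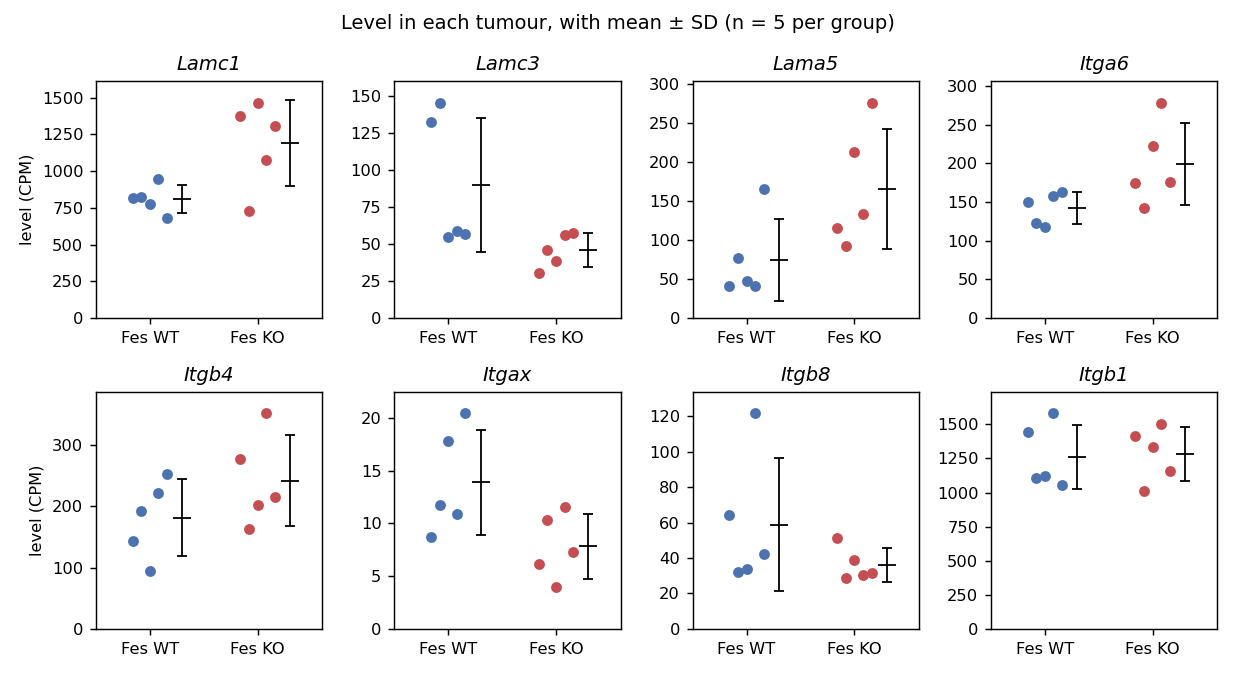
Level in CPM (y axis, from 0) of 8 integrin and laminin genes in each Fes WT (blue) and Fes KO (red) tumour, with the mean and SD of 5 beside the points. In Lamc1 and Itga6, 4 Fes KO tumours lie above all Fes WT tumours. Fes WT 1 and Fes WT 2 are far above the rest in Lamc3, and Fes WT 4 alone is in Itgb8. The Itgb1 groups overlap over nearly their whole range.

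Itgb1, the beta subunit shared by most matrix-binding integrins, had the most transcript per kb of all members and the smallest SE. It was at 1411, 1011, 1333, 1504 and 1155 CPM in Fes KO 1 to 5 and at 1447, 1105, 1124, 1581 and 1057 CPM in Fes WT 1 to 5. Both groups covered nearly the same range, and the log2 fold change was 0.02 (SE 0.17, 95% interval -0.35 to 0.39). Per kb, Itgb1 took 75.6% ± 3.27 in Fes KO and 74.3% ± 5.11 in Fes WT (SD, n = 5 each) of the beta subunit signal. At 312 CPM per kb it stood above Itgb5, the next beta subunit, at 38.4 CPM per kb.

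Collagen receptors were carried mainly by Itga1 and Itga2, which lie next to each other on chromosome 13 with a gap of 20995 bases. These alpha subunits pair with Itgb1. Itga1 was at 179.9, 81.3, 150, 184 and 71.3 CPM in Fes KO 1 to 5 and at 116, 86.6, 107, 172 and 111 CPM in Fes WT 1 to 5. Fes KO 4, Fes KO 1 and Fes WT 4 were the highest, so the groups overlapped, and the log2 fold change was 0.17 (SE 0.29, 95% interval -0.48 to 0.82). Itga2 was at 40.6 ± 17.0 CPM in the Fes KO tumours and 31.5 ± 13.8 CPM in the Fes WT tumours (SD, n = 5 each), a log2 fold change of 0.37 (SE 0.39), with its lowest value in Fes KO 2. Itga10, a collagen receptor of cartilage, was at 9.02, 6.24, 15.2, 18.6 and 16.5 CPM in Fes KO 1 to 5 and at 3.72, 8.85, 6.69, 8.73 and 13.3 CPM in Fes WT 1 to 5. Of the Fes KO tumours, 3 lay above the highest Fes WT tumour and the other two lay among the Fes WT tumours, at a log2 fold change of 0.67 (SE 0.37). Itga11, the collagen receptor of fibroblasts, was at 1.07, 17.1, 0.370, 2.09 and 0.219 CPM in Fes KO 1 to 5 and at 14.0, 7.45, 8.20, 2.99 and 3.66 CPM in Fes WT 1 to 5. Fes KO 2 was the highest of all 10 tumours, whereas the other 4 Fes KO tumours were below all Fes WT tumours. The log2 fold change was -0.80 (SE 1.02, 95% interval -3.06 to 1.47), and without Fes KO 2 it was -2.94 with an adjusted p of 0.167 (edgeR's quasi-likelihood test with Benjamini-Hochberg adjustment). Fibroblast markers (8 of 8 detected) summed to between 25664 and 43121 CPM across the Fes KO tumours and between 23773 and 40585 CPM across the Fes WT tumours, and their part in the Itga11 values was not tested.

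The receptors of fibronectin and vitronectin, which read the RGD tripeptide, showed no separation by genotype. Itga5, the fibronectin receptor subunit and per kb the highest of this group (28.1 CPM per kb), was at 132, 113, 131, 153 and 188 CPM in Fes KO 1 to 5 and at 112, 119, 205, 112 and 119 CPM in Fes WT 1 to 5. Fes WT 3 was the highest tumour, the other 4 Fes WT tumours lay between 112 and 119 CPM, and the log2 fold change was 0.10 (SE 0.20, 95% interval -0.34 to 0.54). Without Fes KO 2 and Fes WT 3 together it was 0.38, with an edgeR adjusted p of 0.328. The Itga5 groups then did not overlap, as for 5.98% of all genes. Itgav, the alpha V subunit, followed at 25.97 CPM per kb with 271 ± 90.3 CPM in the Fes KO tumours and 287 ± 55.4 CPM in the Fes WT tumours (SD, n = 5 each), a log2 fold change of -0.08 (SE 0.22). Itga8, a nephronectin receptor of smooth muscle and kidney, ranged from 7.51 to 94.9 CPM among Fes KO and from 30.3 to 91.4 CPM in Fes WT. Its log2 fold change was -0.61 (SE 0.59), and when single tumours were left out it ran from -1.21 without Fes KO 2 to -0.34 without Fes KO 5. Without the 3 Xist-expressing tumours it was -1.92, with an edgeR adjusted p of 0.140. The Itga8 groups then did not overlap, as for 12.8% of all genes. Itga2b, the platelet receptor subunit, was at 7.30 ± 1.62 CPM in the Fes KO tumours and 7.22 ± 1.89 CPM in the Fes WT tumours (SD, n = 5 each), beside platelet markers that summed to between 15.3 and 32.0 CPM across the Fes KO tumours and between 15.1 and 47.8 CPM across the Fes WT tumours. Nearly all of that sum of 5 markers was Pf4, at 14.0 to 31.3 CPM in Fes KO and 14.3 to 46.9 CPM in Fes WT.

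Among the alpha V partners Itgb3, Itgb5, Itgb6 and Itgb8, Itgb5 was the most abundant. Itgb1, described above, was left out of this group. Itgb8 and Itgb5 averaged lower in Fes KO while Itgb3 averaged higher. Itgb5 was at 134, 163, 90.5, 131 and 85.3 CPM in Fes KO 1 to 5 and at 160.2, 122, 143, 119 and 218 CPM in Fes WT 1 to 5. The highest and lowest values were in Fes WT 5 and Fes KO 5, the groups overlapped, and the log2 fold change was -0.34 (SE 0.22, 95% interval -0.82 to 0.15), or -0.17 without Fes WT 5. Itgb3, the partner in the vitronectin receptor, was at 124, 75.1, 105, 53.2 and 80.9 CPM in Fes KO 1 to 5 and at 74.4, 61.7, 87.9, 72.8 and 58.2 CPM in Fes WT 1 to 5. Fes KO held both the highest and the lowest tumour, at a log2 fold change of 0.30 (SE 0.21, 95% interval -0.17 to 0.77), or 0.15 without Fes KO 1. Itgb8, which releases TGF-beta from its latent complex, was at 51.3, 28.4, 38.8, 30.6 and 31.3 CPM in Fes KO 1 to 5 and at 64.5, 32.1, 33.5, 122 and 42.2 CPM in Fes WT 1 to 5. Fes WT 4 and Fes WT 1 were the highest, the other Fes WT tumours lay within the Fes KO range, and the log2 fold change was -0.71 (SE 0.37, 95% interval -1.52 to 0.11). Without Fes WT 4 it was -0.26. Adjusted p-values by edgeR's quasi-likelihood test with Benjamini-Hochberg adjustment were 0.646 for Itgb5, 0.669 for Itgb3 and 0.576 for Itgb8. Shares were also taken per kb of the sum of Itgb3, Itgb5, Itgb6 and Itgb8. For Itgb3 this share was 28.8% ± 8.67 in Fes KO and 20.4% ± 4.52 in Fes WT (SD, n = 5 each). The groups overlapped.

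Itga4 and Itga9, receptors for Vcam1 and other ligands, showed no difference beyond the spread. Itga4, the higher per kb of this pair (8.43 CPM per kb), was at 186, 137, 88.6, 115 and 71.1 CPM in Fes KO 1 to 5 and at 121, 97.4, 104, 189.7 and 69.6 CPM in Fes WT 1 to 5. Both groups spanned nearly the same range, with a log2 fold change of 0.04 (SE 0.31, 95% interval -0.64 to 0.72). Itga9 was at 50.7 ± 15.7 CPM in the Fes KO tumours and 58.5 ± 14.2 CPM in the Fes WT tumours (SD, n = 5 each), a log2 fold change of -0.21 (SE 0.24).

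Leukocyte integrins averaged lower in Fes KO for 5 of 6 tested genes, with a median log2 fold change of -0.71, and macrophage markers averaged lower beside them. Itgb2 is the common beta subunit of Itgal, Itgam and Itgax, which serve T cells, macrophages and dendritic cells, among other leukocytes. Itgax was at 6.12, 10.3, 3.94, 11.5 and 7.29 CPM in Fes KO 1 to 5 and at 8.69, 11.8, 17.8, 10.9 and 20.4 CPM in Fes WT 1 to 5. Fes KO 1, Fes KO 3 and Fes KO 5 were below all Fes WT tumours, and Fes KO 2 and Fes KO 4 lay among the lower Fes WT tumours. At -0.83 (SE 0.33, 95% interval -1.56 to -0.10), the log2 fold change had an adjusted p of 0.467 by edgeR's quasi-likelihood test with Benjamini-Hochberg adjustment (unadjusted p = 0.0295). Itgam was at 8.64, 20.1, 7.70, 32.6 and 8.45 CPM in Fes KO 1 to 5 and at 37.4, 26.5, 21.1, 20.6 and 33.2 CPM in Fes WT 1 to 5. The same 3 Fes KO tumours were low, Fes KO 2 was just below the lowest Fes WT tumour, and Fes KO 4 lay among the highest Fes WT tumours. Its log2 fold change was -0.84 (SE 0.42, 95% interval -1.77 to 0.09), and -1.31 without Fes KO 4.

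The count of Itgam carries an uncertainty. A second gene given the symbol Itgam in the tables (ENSMUSG00000108596) overlaps it by 55809 bases on chromosome 7 and shares 3450 of its exon bases, while 1574 exon bases of Itgam are not shared. That second gene had 0 counts in all 10 tumours, which allows up to 0.0195 CPM over 153905113 counts. How reads in shared exons were counted, and with which strand setting, is not stated in the labels. Itgad, which follows Itgax at a gap of 3718 bases, had 28 counts in all 10 tumours and was not tested.

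Itgb2, the highest of the leukocyte subunits per kb (11.9 CPM per kb), was at 14.9, 36.6, 14.9, 54.6 and 19.3 CPM in Fes KO 1 to 5 and at 53.0, 33.4, 55.4, 30.8 and 49.9 CPM in Fes WT 1 to 5. As for Itgam, the lowest were Fes KO 1, Fes KO 3 and Fes KO 5, and Fes KO 4 was among the highest, at a log2 fold change of -0.67 (SE 0.38, 95% interval -1.51 to 0.18). Itgal was at 8.93 ± 6.61 CPM in the Fes KO tumours and 11.7 ± 6.24 CPM in the Fes WT tumours (SD, n = 5 each), a log2 fold change of -0.38 (SE 0.49). Its value ran from -0.94 without Fes KO 4 to -0.06 without Fes WT 5 and was 0.11 without the 3 Xist-expressing tumours, so its place among the 5 lower genes turned on which tumours were kept. Itgae, the partner of Itgb7 in T cells of epithelia, was at 3.58 ± 3.13 CPM in the Fes KO tumours and 6.07 ± 1.80 CPM in the Fes WT tumours (SD, n = 5 each), a log2 fold change of -0.76 (SE 0.56). Itgb7 alone of the 6 lay above 0, at 0.07 (SE 0.30). The 6 genes summed to 46.1, 96.1, 43.0, 149 and 54.9 CPM in Fes KO 1 to 5 and to 118, 98.1, 132, 87.2 and 149 CPM in Fes WT 1 to 5. Macrophage markers (10 of 10 detected) summed to 849.9, 1786, 818, 1909 and 815 CPM and 3060, 1693, 2217, 1285 and 2324 CPM in the same tumours. All 10 had log2 fold changes below 0, and 0 of them were called by edgeR's quasi-likelihood test. T and NK cell markers summed to between 4.19 and 19.8 CPM across the Fes KO tumours and between 12.6 and 36.7 CPM across the Fes WT tumours. The 5 neutrophil markers summed to 32.3, 33.9, 45.7, 154 and 34.6 CPM in Fes KO 1 to 5. In Fes WT 1 to 5 they summed to 53.75, 77.1, 28.55, 59.3 and 198 CPM, so Fes WT 5 and Fes KO 4 were the highest. As few as 2 of the 5 had at least 10 counts in a tumour. The part of any of these cell types in the integrin values was not tested.

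**Figure D5:**
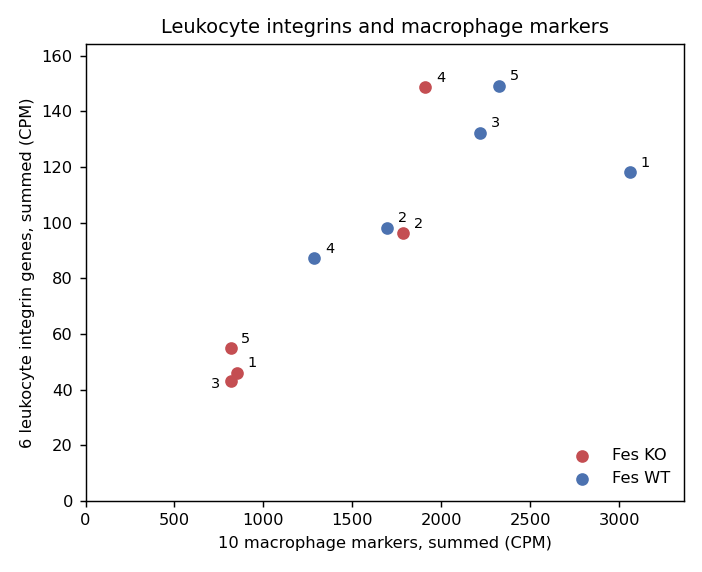
Summed CPM of 6 leukocyte integrin genes (y axis) against summed CPM of 10 macrophage markers (x axis) for each Fes KO (red) and Fes WT (blue) tumour, labelled by its number. Fes KO 1, 3 and 5 lie low on both axes, at 43.0 to 54.9 CPM of integrin genes, and Fes KO 2 and 4 lie among the Fes WT tumours.

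The other genes of integrin and laminin function gave no call either. In 5 lists of related genes, 0 members passed an adjusted p of 0.05 by edgeR's quasi-likelihood test with Benjamini-Hochberg adjustment, where 0.175% of all genes did. Of 17 tested integrin ligands other than laminins, 4 were lower at an unadjusted p below 0.05 (5.39% of all genes) and 1, Vcam1, did not overlap between groups (1.90% of all genes). Their median log2 fold change was -0.04. Vcam1, the endothelial ligand of Itga4, was at 43.4, 59.2, 29.0, 58.8 and 25.6 CPM in Fes KO 1 to 5 and 145, 98.0, 111, 86.9 and 63.7 CPM in Fes WT 1 to 5. Every Fes KO tumour was below every Fes WT tumour, at a log2 fold change of -1.22 (SE 0.29) and an edgeR adjusted p of 0.198. Vtn, the vitronectin bound by alpha V integrins, was at 16.2 ± 8.23 CPM in the Fes KO tumours and 71.7 ± 42.2 CPM in the Fes WT tumours (SD, n = 5 each), a log2 fold change of -2.15 (SE 0.54) with an edgeR adjusted p of 0.215. Fbln5, an elastic fibre protein with an RGD site, had a log2 fold change of -0.91 (SE 0.33).

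Of 14 tested basement membrane partners of laminins, 1 was higher and 2 lower at an unadjusted p below 0.05 (4.23% and 5.39% of all genes), with a median of 0.00. Bcam, a cell surface receptor for Lama5, was at 40.7, 92.2, 65.0, 76.2 and 99.6 CPM in Fes KO 1 to 5 and 33.1, 46.7, 42.4, 35.1 and 51.2 CPM in Fes WT 1 to 5. Fes KO 1 alone lay within the Fes WT range. The log2 fold change was 0.84 (SE 0.23), with an adjusted p of 0.274 by edgeR's quasi-likelihood test with Benjamini-Hochberg adjustment. Col4a3 and Col4a4, collagen chains of specialised basement membranes, had log2 fold changes of -2.49 (SE 0.63) and -0.89 (SE 0.31). Fes WT 5, at 1.14 CPM of Col4a3, lay within the Fes KO range of 0.588 to 1.91 CPM, and the other 4 Fes WT tumours were above it. The 8 hemidesmosome partners and tetraspanins had a median of -0.02, with the tetraspanin gene Cd63 at -0.25 (SE 0.11) and Dst, which encodes a hemidesmosome plakin, at -0.31 (SE 0.17). Col17a1, the hemidesmosomal collagen of keratinocytes, was at 228 CPM in Fes KO 2 and at 23.1 CPM or less elsewhere.

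Inside the cell, 27 tested genes that activate integrins or link them to actin had a median log2 fold change of 0.04, and none reached an unadjusted p of 0.05, where 9.62% of all genes did. Ptk2b, a focal adhesion kinase family member, had 0.86 (SE 0.42), Fermt3, the kindlin of blood cells, -0.67 (SE 0.34), and Actn4, an actin crosslinker, 0.27 (SE 0.14). Fermt3 was lowest in Fes KO 1, Fes KO 3 and Fes KO 5, as were Itgam and Itgb2. The 9 tested latent TGF-beta proteins had a median of 0.13, with Tgfb2 at 0.27 (SE 0.19), Tgfb1 at 0.22 (SE 0.16) and Tgfb3 at -0.17 (SE 0.12).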

How the data were processed

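For 10 tumours the authors deposited whole-number read counts for each gene, and log2 values of the same genes in a second table. The deposited log2 values equal log2 of 1 plus the count divided by a size factor, as found from the values. Per the submitters' processing notes, the tools were FastQC, STAR 2.51b and Subread 1.4.6 with mm10/GRCm38; settings, strand and the handling of overlapping genes are not given there.

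Counts were tested with edgeR 4.0.16 in R 4.3.3 (TMM, filterByExpr with a minimum count of 10, quasi-likelihood fit, 2-sided, no covariates), adjusted over 14816 genes. Levels are TMM-scaled CPM. Per kb values divide by merged exon length in GENCODE M21 (GRCm38), which also gave positions. Fits were tested on simulated data first. Precision is given as SD over 5 tumours and as SE.

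Alternatives were RLE factors, DESeq2 1.42.0, limma 3.58.1 (voom with quality weights, and on the log2 values), other filters, a replicate block, marker covariates, a looser threshold, and fits without single tumours, without Fes KO 2 and Fes WT 3, or without Xist-expressing tumours.

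Members, gene lists and tests were chosen with earlier results of these data known. Values in all tumours are given for the 12 members with the lowest p, for the highest per kb of each role group and, by later choice, for the epidermal chains, Itga3 and Itga11. From each of 5 lists of related genes the 3 of lowest p are named. An allele shared by both groups and 1 member are not reported here.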

Additional observations from a re-analysis of the deposited data

Results flagged for a closer look

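Of 66 groups of 5 values (33 members in 2 groups), 9 had a highest tumour that lay far from the other 4 for that gene, by Dixon's criterion for 5 values. Chance flags about 1 in 20 groups if values are normally distributed, which was not checked for these CPM values. The share flagged over all genes was not computed, so 9 of 66 has no background to be read against. No low value met the criterion, and 4 of the 9 values were in Fes KO 2, the tumour richest in keratinocyte transcripts.

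In Fes KO 2, Lamb3 was at 19.6 CPM, against 0.0729 to 0.588 CPM in Fes KO 1, 3, 4 and 5. Lama3 was at 20.4 CPM, against 1.24 to 4.01 CPM, Itga3 at 36.1 CPM, against 5.68 to 11.3 CPM and Itga11 at 17.1 CPM, against 0.219 to 2.09 CPM in the same comparison.

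Among the Fes WT tumours, Fes WT 5 was far above the other 4 for 3 laminin chains. Lama3 was at 8.23 CPM, against 1.34 to 2.35 CPM, Lamb3 at 6.25 CPM, against 0.366 to 1.90 CPM and Lama5 at 165 CPM, against 41.3 to 77.0 CPM in the other Fes WT tumours. Itga5 was at 205 CPM, against 112 to 119 CPM, in Fes WT 3, the muscle-rich tumour. Lama4 was at 629 CPM, against 417 to 478 CPM, in Fes WT 4.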

How the results depend on the processing

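The count of members called stayed at 0 at an adjusted p below 0.05 in all 20 alternative fits, and at one below 0.1 in the edgeR fit of the report. Of 677 member values, 3 changed sign from a value larger than its SE, all of Lama3. Its log2 fold change of 0.98 was -0.38 without Fes KO 2 and Fes WT 3 together and -0.01 with keratinocyte and muscle covariates, and ran from -0.26 to 1.70 when single tumours were left out. Another 50 values changed sign from within 1 SE of 0, and 21 of 34 members never changed sign. The 5 members with an unadjusted p below 0.05 became 12 in limma-voom (17.7% of all genes), 9 with the covariates (13.0%) and 10 without the Xist-expressing tumours (13.7%), and ran from 2 to 10 without single tumours. With the replicate block there were 3 (8.02%). The values showed no sign that replicate numbers pair the tumours. Same-numbered deviations correlated at 0.17, -0.38, -0.21, -0.11 and 0.14, and 1 of 10 tumours correlated best with its own number. These correlations cannot exclude a pairing, because single tumours that stand apart, such as Fes KO 2 and Fes WT 3, can sway them. The members not overlapping numbered 4 without Fes KO 2 and Fes WT 3 together (5.98% of all genes) and 8 without the Xist-expressing tumours (12.8%), and 0 to 3 without single tumours. The laminin median of 0.21 was 0.022 without Fes KO 2 and Fes WT 3 together, 0.004 with the covariates, and 0.009 to 0.36 without single tumours. The cause of these changes was not tested. Over all genes, 26 calls became 299 in DESeq2, 115 in limma-voom and 4 with the replicate block. With 5 tumours a group and a median SE of 0.30, small differences in the members were not detectable.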
